A study of Mus musculus with 6 samples.

Results

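Treg cells lacking the O-GlcNAc transferase OGT were compared with OGT-sufficient Treg cells for the genes of the endoplasmic reticulum (ER) that fold, import and degrade secretory proteins, and for the sensors that watch over this work. The set was a list of 40 gene symbols, looked up in the first column of the deposited table, and all 40 were found among its 24420 genes. It held 11 chaperones and co-chaperones of the ER lumen, 7 isomerases with their oxidase, 4 genes of stress sensing, 8 genes of ER-associated degradation, and 10 subunits of the translocon, the translocon-associated complex and the signal peptidase. The list was given by gene name, with no measured value in its rule, and 39 of the 40 genes had enough reads to be tested.

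By the tissue given in the labels, the RNA came from the lymph nodes of 6 female C57BL/6 mice, as YFP+ Treg cells. All 6 carried the YFP-Cre fusion in the *Foxp3* locus on 1 of their X chromosomes (Foxp3YFP-Cre/wt), so Cre was expressed only where *Foxp3* is, and random inactivation of the X chromosome left YFP- Treg cells in every mouse. Mice that carried Ogtwt/fl are called OGT-sufficient (n = 3) and those that carried Ogtfl/fl are called OGT-deficient (n = 3). The labels do not say which X chromosome of an Ogtwt/fl mouse holds the floxed allele, so the OGT status of its YFP+ cells rests on the group's name. Ages are not in the labels, and the paper gives a general range in weeks for mice other than its young males, unless noted otherwise. CD4 beads and a sort on YFP purified the cells. The paper's RNA-seq methods name no tissue, and its general purification of Treg cells used lymph nodes and spleen. Each library is 1 mouse, values are listed in the order of replicates 1, 2 and 3, and levels are in CPM, the count relative to the library size after TMM scaling and expressed on the usual CPM scale.

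Proteins that enter the secretory pathway pass through the SEC61 channel, lose their signal peptide, and are folded by BiP (*Hspa5*), the lectin chaperones and the disulfide isomerases. Those that fail are passed back to the cytosol for degradation. When unfolded proteins accumulate, the sensors IRE1 (*Ern1*), ATF6 and PERK (*Eif2ak3*) start the unfolded protein response: IRE1 splices the mRNA of *Xbp1*, ATF6 is cleaved to a transcription factor, and PERK slows translation and raises ATF4. XBP1 and ATF6 then raise many of the genes described here, whereas ATF4 raises *Ddit3* and *Ppp1r15a*. OGT places single N-acetylglucosamine residues on cytosolic and nuclear proteins, a modification distinct from the N-glycans on which calnexin and calreticulin act in the ER.

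ATF6 and XBP1 act through the ER stress response element, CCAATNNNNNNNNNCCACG, and a shorter form, ATTGGNCCACG. Both were searched on both strands of RefSeq promoter windows (GRCm38.p6), which run from 250 bases before the transcript start for 300 bases, and which were on hand for 33 of the 40 genes. The first was in 8 of the 33 and in 37 of all 27025 genes with a window (0.137%). The second was in 2 of the 33 and in 12 of all genes (0.0444%). The 2 patterns did not overlap in the windows of these genes. The sites are shown as a sequence feature of some of these genes. Genes of the unfolded protein response were listed by name, so the larger share among them is not independent of that choice. Each site is printed 5′ to 3′ on the strand of the gene with the element in capitals and 5 bases on either side. Where CGTGG stands first and ATTGG last, the element lies on the opposite strand.
Hspa5: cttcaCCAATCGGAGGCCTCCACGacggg
Hsp90b1 distal: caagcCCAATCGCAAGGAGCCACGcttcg
Hsp90b1 proximal: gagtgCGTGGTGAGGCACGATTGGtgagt
Calr: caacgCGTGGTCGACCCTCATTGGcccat
Canx: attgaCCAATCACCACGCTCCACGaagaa
Creld2: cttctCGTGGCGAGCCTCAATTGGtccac
Dnajc3: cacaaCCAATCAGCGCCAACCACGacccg
Pdia6: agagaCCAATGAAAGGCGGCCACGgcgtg
Syvn1: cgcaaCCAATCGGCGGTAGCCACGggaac
Dnajb11: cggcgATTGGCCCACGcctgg
Herpud1: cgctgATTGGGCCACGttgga

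The *Hspa5* site lies at chr2:34772020-34772048 on the plus strand, upstream of the RefSeq start and within the longer first exon of a GENCODE transcript. The *Hsp90b1* sites lie at chr10:86705633-86705661 and chr10:86705528-86705556 and belong to a gene of the minus strand. Those of *Calr* (chr8:84847070-84847098) and *Canx* (chr11:50325795-50325823) also belong to genes of the minus strand. The remaining sites belong to genes of the plus strand, for *Creld2* at chr15:88819515-88819543, for *Dnajc3* at chr14:118937822-118937850, for *Pdia6* at chr12:17266486-17266514, for *Syvn1* at chr19:6046527-6046555, for *Dnajb11* at chr16:22857847-22857867 and for *Herpud1* at chr8:94386372-94386392. All lie upstream of the RefSeq start except the *Dnajb11* site, which is in the first exon. A match is a description of the letters and not a measurement of binding.

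**Figure D1:**
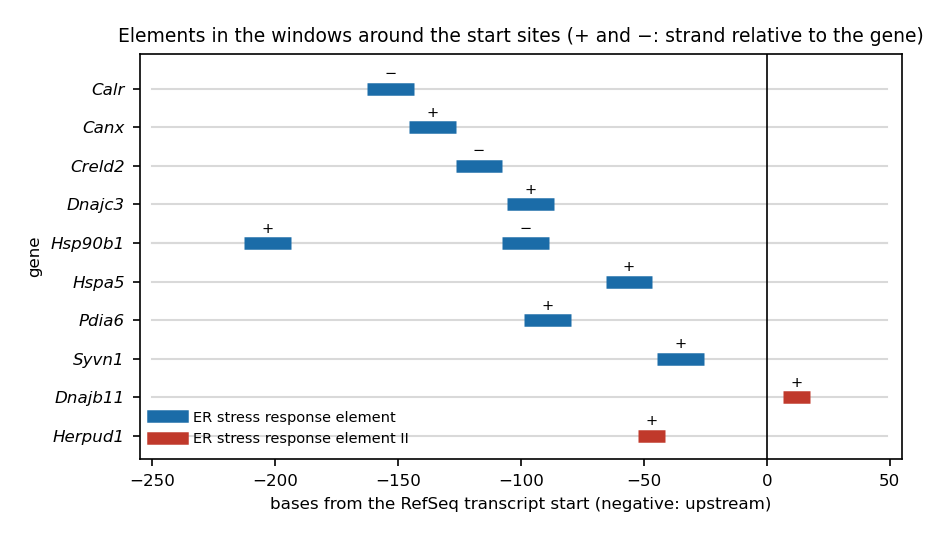
Positions of the ER stress response element (blue) and its shorter form (red) in the window of each gene, in bases from the RefSeq transcript start, with the strand relative to the gene above each bar. The element of *Hspa5* spans -65 to -47, and *Hsp90b1* holds 2 copies, at -212 to -194 and at -107 to -89.

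*Ogt*, the targeted gene, had 149.6, 169.6 and 251 CPM in the OGT-sufficient and 84.0, 67.0 and 96.0 CPM in the OGT-deficient libraries. Every OGT-deficient library lay below every OGT-sufficient one, and the log2 difference was -1.21 with a standard error of 0.21. By edgeR's quasi-likelihood test the adjusted p was 0.191, so *Ogt* itself did not pass an FDR of 0.1, whereas it did by DESeq2 (adjusted p 0.000561), by edgeR's exact test (0.000458) and with no low-count filter (1.62e-05). Total counts were between 3375454 and 4103552 per library, and *Rn45s*, a ribosomal RNA precursor, took 24.2 to 37.1% of them. OGT-sufficient replicate 3 stood apart, with a count in 18346 genes against 14412 to 15197 elsewhere and in 303 of 1107 olfactory receptor genes against 12 to 55. Over 10949 genes tested, 3 passed an FDR of 0.1, which is 0.0274%.

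None of the 39 ER genes tested passed an FDR of 0.1 in either direction. The lowest adjusted p was 0.706 and the highest 0.995, by edgeR's quasi-likelihood test. At an unadjusted p under 0.05, 0 were higher and 0 lower in OGT-deficient Treg cells, beside 3.09% of all genes tested that were higher and 4.01% that were lower. DESeq2 and edgeR's exact test, as alternatives, also gave 0 at that threshold. No gene of the set had all OGT-deficient libraries above all OGT-sufficient ones, beside 5.72% of all genes tested, and 1, *Sel1l*, had them all below, beside 7.48%. The log2 fold change was positive for 25 genes and negative for 14. Its median was 0.06, a 1.04-fold difference, beside -0.017 over all genes tested, and it was -0.0027 without OGT-sufficient replicate 3 and 0.17 without OGT-sufficient replicate 1. Leaving out 1 library moved the other counts as well. Without OGT-sufficient replicate 1 there were 5 genes higher at an unadjusted p under 0.05, beside 4.17% of all genes, and 10 with all OGT-deficient libraries above, beside 12.2%. Without OGT-deficient replicate 3 there were 2, beside 3.76%, and 9, beside 14.0%. Without OGT-sufficient replicate 3, 4 genes had all OGT-deficient libraries below, beside 12.4%.

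The spread between mice set how large a difference could have gone unseen. The 95% interval of the fold change lay wholly within 1.5-fold in either direction for 28 of the 39 genes and within 2-fold for all 39. The lowest limit was 0.558-fold, for *Eif2ak3*, and the highest 1.76-fold, for *Spcs2*. The median standard error was 0.16 on the log2 scale, beside 0.198 over all genes tested. These intervals treat each mouse as 1 replicate and are not corrected for the number of genes. In bulk RNA, fewer cells of a type and less RNA per cell cannot be told apart.

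**Figure D2:**
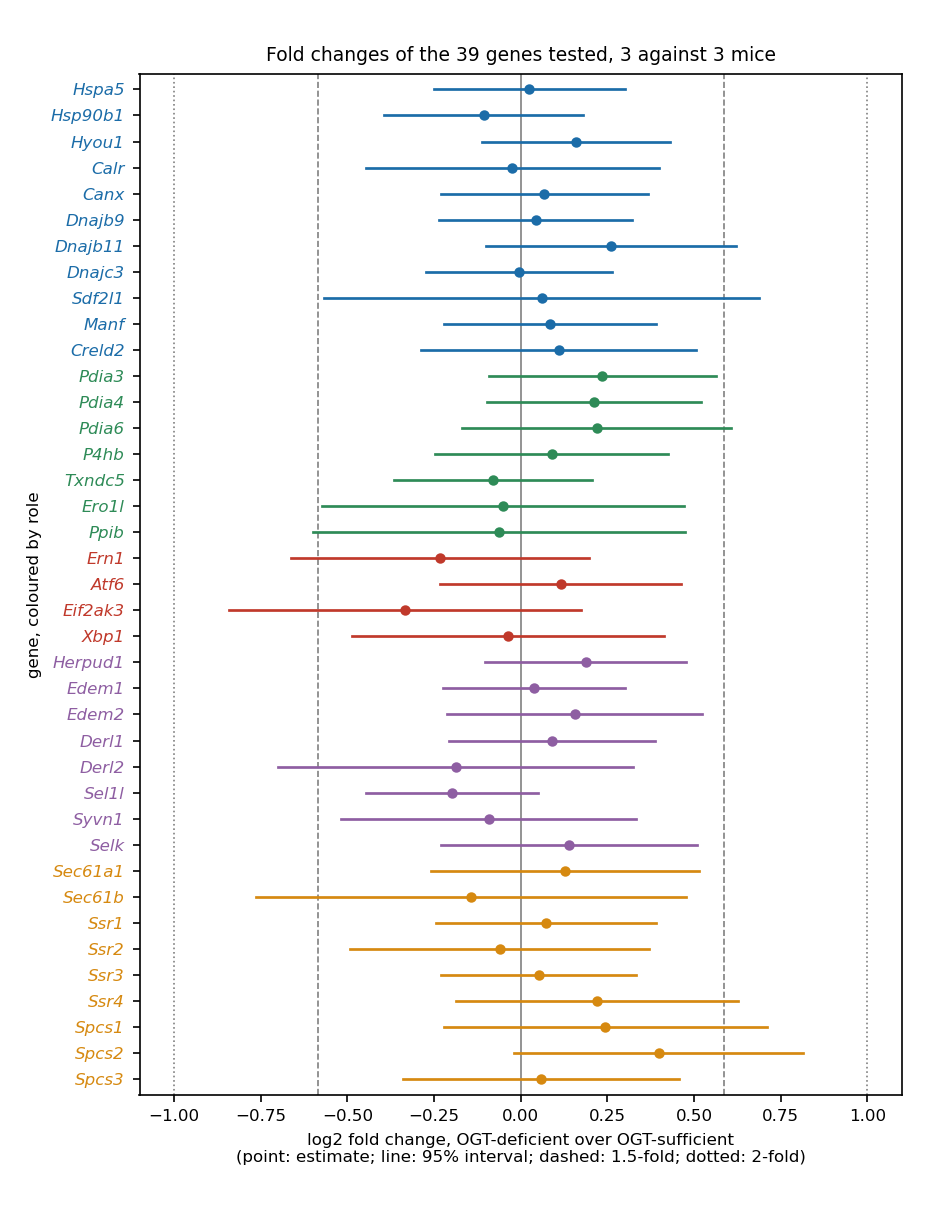
Log2 fold change of each of the 39 genes tested, OGT-deficient over OGT-sufficient (x axis), with its 95% interval from edgeR's quasi-likelihood test, 3 mice against 3, coloured by role (chaperones blue, isomerases green, sensors and *Xbp1* red, degradation purple, translocon and signal peptidase orange). Every interval includes 0 and lies between the dotted lines at 2-fold, and the estimates run from -0.33 for *Eif2ak3* to 0.40 for *Spcs2*.

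Per kilobase of the longest coding transcript in GENCODE M21, the abundant chaperones led the set. *Calr*, which encodes the soluble lectin chaperone calreticulin, was highest at 313 CPM per kilobase, followed by *Hsp90b1* (GRP94) at 261, *Pdia3* at 208, *Hspa5* at 142 and the membrane-bound lectin chaperone *Canx* at 125. Sensors stood near the other end, with 2.45 CPM per kilobase for *Ern1* and 7.01 for *Atf6*. The levels of tested genes spanned 128-fold, and they include RNA of other cells in the libraries, such as the macrophages described below. The order of the first 7 genes was nearly kept when merged exons were taken as the length, where *Hsp90b1* and *Pdia3* exchanged ranks 2 and 3. Genes with long annotated exons moved, *Ppib* from rank 9 to rank 28 and *Ssr4* from rank 11 to rank 31. Exons of *Hsp90b1*, *Dnajb9*, *Manf*, *Pdia3*, *Pdia4*, *Pdia6*, *Txndc5*, *Ppib*, *Eif2ak3*, *Derl2*, *Syvn1*, *Sec61a1*, *Ssr2*, *Spcs1* and *Spcs3* share bases with another annotated gene, whose reads the counts may not separate.

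**Figure D3:**
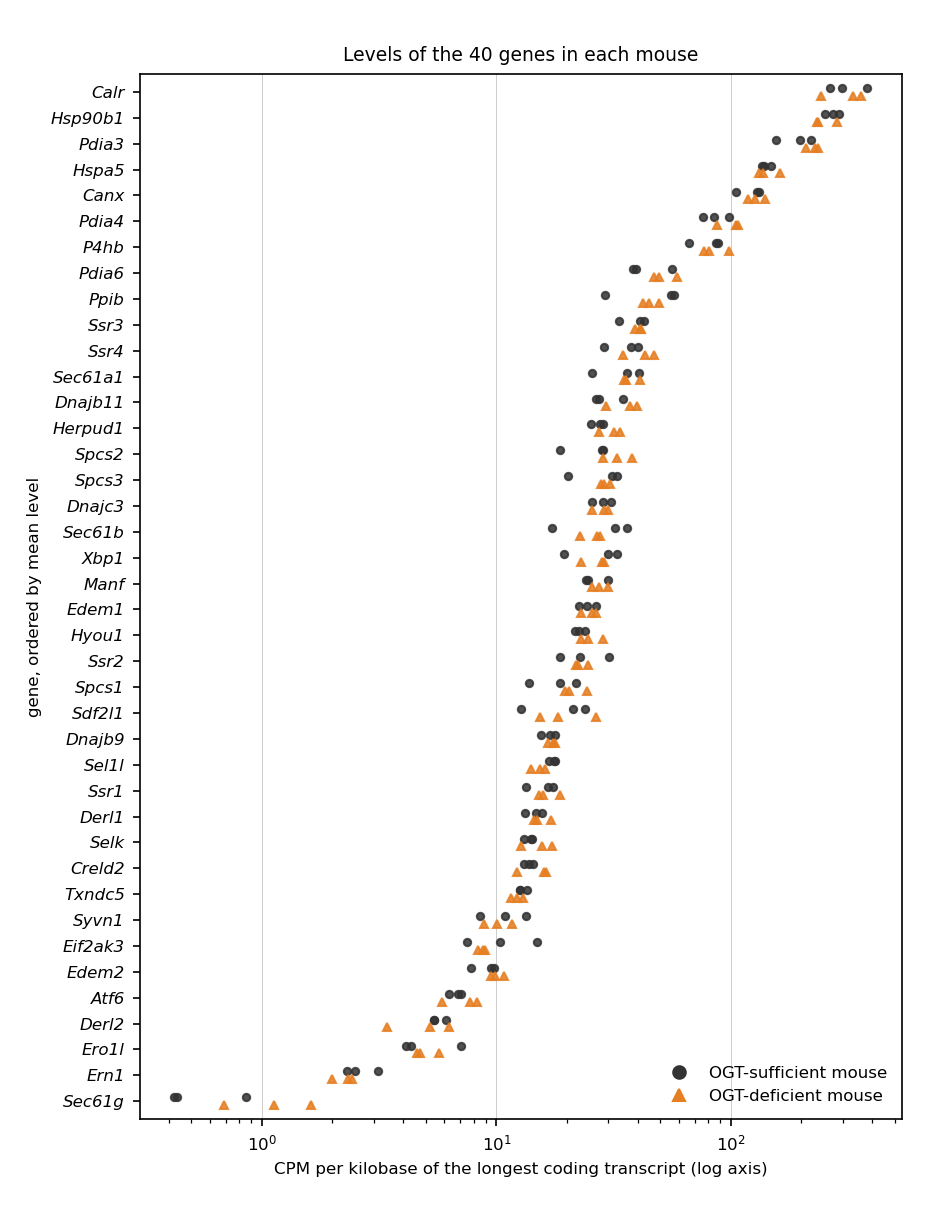
Level of each of the 40 genes in each mouse, as CPM per kilobase of the longest coding transcript on a log axis, with OGT-sufficient mice as black circles and OGT-deficient mice as orange triangles. Circles and triangles of a gene lie together over a range of 128-fold between tested genes, and *Sec61g*, which the low-count filter left out of the test, is lowest at 0.858.

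Among the chaperones and co-chaperones of the ER lumen, 8 of 11 had a positive and 3 a negative log2 fold change, with a median of 0.06. *Hspa5* encodes BiP, the HSP70 of the ER and the classical read-out of the unfolded protein response. It had 547, 499.8 and 507 CPM in the OGT-sufficient and 485, 595 and 502 CPM in the OGT-deficient libraries. Its groups overlapped, since OGT-deficient replicates 1 and 2 were the lowest and the highest of all 6, and the group means were 518 ± 25.6 and 527 ± 59.5 CPM (SD, n = 3 each). The ratio was 1.02-fold, with a 95% interval of 0.841 to 1.23. *Hsp90b1* had 816, 709.6 and 767 CPM in the OGT-sufficient and 667, 802 and 660.0 CPM in the OGT-deficient libraries, again with overlap, and an interval of 0.761 to 1.13-fold. *Calr* varied more between mice of 1 genotype than between genotypes, from 578 to 835 CPM in OGT-sufficient and from 527 to 783 CPM in OGT-deficient mice. *Canx* had 565, 555 and 451 CPM and 505, 600.4 and 541 CPM, with OGT-sufficient replicate 3 the lowest, and an interval of 0.852 to 1.29-fold.

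The co-chaperones that feed or regulate BiP had ratios near 1. *Dnajb9* (ERdj4) is a strongly inducible target of the IRE1 branch. It had 41.8, 43.7 and 38.0 CPM in the OGT-sufficient and 40.8, 43.6 and 42.8 CPM in the OGT-deficient libraries. *Dnajb9* varied least of all 39 genes, with 1.15-fold between its highest and its lowest library, and its interval was 0.849 to 1.25-fold. *Dnajc3* (p58IPK), which binds unfolded proteins with BiP, had means of 145 ± 13.4 and 144 ± 11.1 CPM (SD, n = 3 each), a ratio of 0.996 (0.827 to 1.20). For *Hyou1*, a nucleotide exchange factor of BiP, the log2 fold change was 0.16 and the interval 0.925 to 1.35-fold.

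*Dnajb11* (ERdj3), a secreted co-chaperone, had the largest positive value of this group at 0.26 (standard error 0.16). Its levels were 87.6, 68.9 and 66.9 CPM in OGT-sufficient and 93.3, 100.3 and 73.9 CPM in OGT-deficient mice, so OGT-deficient replicate 3 lay within the OGT-sufficient range. The p was 0.137 and the adjusted p 0.763 by edgeR's quasi-likelihood test. *Sdf2l1*, a partner of *Dnajb11*, varied most among the chaperones, with 26.3, 23.6 and 14.2 CPM and 20.3, 29.5 and 17.0 CPM, and its interval of 0.674 to 1.61-fold was the widest of this group. *Manf* and *Creld2*, small secreted proteins that are induced by ER stress, had intervals of 0.858 to 1.31 and 0.820 to 1.42-fold.

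No isomerase passed the test, and of the 7 genes of this group 4 had a positive and 3 a negative log2 fold change, with a median of 0.089. *Pdia3* (ERp57), which works on glycoproteins held by calnexin and calreticulin, had 606, 548 and 431 CPM in the OGT-sufficient and 654, 633 and 579 CPM in the OGT-deficient libraries. OGT-sufficient replicate 3 was the lowest and replicate 1 lay inside the OGT-deficient range, and the log2 fold change was 0.24 (standard error 0.14). *Pdia4* had 0.21 (standard error 0.14) and *Pdia6*, which also attenuates IRE1, had 0.22 (standard error 0.17). *P4hb* (PDI), the founding isomerase, had means of 229.7 ± 34.2 and 244 ± 32.3 CPM (SD, n = 3 each). *Txndc5*, a thioredoxin-domain isomerase, had 35.9, 35.9 and 38.5 CPM in the OGT-sufficient and 32.9, 34.8 and 36.8 CPM in the OGT-deficient libraries, a log2 fold change of -0.080 with overlap. Without OGT-sufficient replicate 1, *Dnajb11*, *Pdia3*, *Pdia4*, *Pdia6* and *Spcs2* reached an unadjusted p under 0.05, and the lowest adjusted p among them was 0.661. All 5 were lowest in OGT-sufficient replicate 3, which was then 1 of only 2 OGT-sufficient libraries. Without OGT-sufficient replicate 3 instead, the log2 fold change fell to 0.12 for *Pdia3*, 0.14 for *Pdia4* and 0.13 for *Pdia6*.

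*Ero1l*, the oxidase that recharges the isomerases, and *Ppib*, the proline isomerase cyclophilin B, deviated in opposite directions in the same library. *Ero1l* had 19.2, 18.2 and 31.2 CPM in the OGT-sufficient and 20.3, 20.9 and 25.1 CPM in the OGT-deficient libraries, with OGT-sufficient replicate 3 the highest. *Ppib* had 49.5, 51.2 and 26.0 CPM and 39.8, 43.8 and 37.6 CPM, with OGT-sufficient replicate 3 the lowest. Their log2 fold changes were -0.051 and -0.063, and without that library they were 0.25 and -0.31, the latter with an unadjusted p of 0.0437 and an adjusted p of 0.715.

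The 3 sensors and *Xbp1* had a median log2 fold change of -0.13, with 3 negative values and 1 positive, and none passed the test. *Eif2ak3* (PERK) had 33.8, 46.9 and 67.1 CPM in the OGT-sufficient and 39.6, 37.5 and 40.2 CPM in the OGT-deficient libraries. The OGT-sufficient values spread over the whole range and enclosed the 3 OGT-deficient ones, with a log2 fold change of -0.33, a standard error of 0.22 and an adjusted p of 0.781. *Ern1* (IRE1), with 17.3, 16.1 and 21.8 CPM and 16.2, 16.9 and 13.8 CPM, was also highest in OGT-sufficient replicate 3. Without that library the log2 fold change of *Eif2ak3* was -0.037 and that of *Ern1* -0.085, against -0.23 with it. Without OGT-sufficient replicate 1, *Eif2ak3* had -0.504, with an unadjusted p of 0.0217 and an adjusted p of 0.661. *Atf6* had means of 48.7 ± 3.02 and 52.8 ± 9.23 CPM (SD, n = 3 each), and its interval was 0.850 to 1.38-fold.

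*Xbp1* encodes the transcription factor of the IRE1 branch and is itself a target of ATF6. It had 69.7, 63.8 and 41.2 CPM in the OGT-sufficient and 49.1, 60.2 and 61.1 CPM in the OGT-deficient libraries, a ratio of 0.975-fold (0.714 to 1.33). Counts per gene do not separate spliced from unspliced *Xbp1* mRNA, so the activity of IRE1 was not measured. In the same way cleavage of ATF6 and phosphorylation of PERK leave no direct trace in these counts.

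Genes of ER-associated degradation included the set's only member whose groups did not overlap. *Sel1l* is the adaptor of the HRD1 ubiquitin ligase. It had 111, 112 and 105 CPM in the OGT-sufficient and 88.1, 101 and 97.1 CPM in the OGT-deficient libraries. All 3 OGT-deficient libraries lay below the OGT-sufficient ones, with a log2 fold change of -0.20 and a standard error of 0.11. Its unadjusted p was 0.105 and its adjusted p 0.755 by edgeR's test. *Syvn1*, the ligase HRD1 itself, had 37.5, 29.5 and 46.1 CPM and 40.3, 35.0 and 30.8 CPM with overlap.

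*Herpud1*, which organises the ligase and responds strongly to ER stress, had means of 53.2 ± 3.28 and 60.6 ± 6.29 CPM (SD, n = 3 each) and an interval of 0.931 to 1.39-fold. *Edem1* and *Edem2*, which trim or recognise mannose on failed glycoproteins, had log2 fold changes of 0.038 and 0.16 (standard errors 0.12 and 0.16). The channel components *Derl1* and *Derl2* had 0.091 and -0.19, the latter with 1 low value of 12.5 CPM in OGT-deficient replicate 3 against 19.0 to 22.9 CPM in the other 5 libraries. *Selk*, a selenoprotein of the ER membrane, was at 23.2 ± 1.02 and 25.5 ± 3.83 CPM (SD, n = 3 each). Within its transcript, 24.1% of bases lie in stretches nearly identical to another gene, so reads may be divided between them.

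The import machinery had the largest positive log2 fold change of the set in the test of all 6 libraries. *Spcs2*, a non-catalytic subunit of the signal peptidase (chr7:99837569-99863462, minus strand, GRCm38), had 83.0, 81.8 and 54.5 CPM in the OGT-sufficient and 111, 95.5 and 82.7 CPM in the OGT-deficient libraries. OGT-deficient replicate 3 fell between OGT-sufficient replicates 1 and 2, so the groups overlapped at their edges. *Spcs2* thus had a log2 fold change of 0.40 with a standard error of 0.18. The quasi-likelihood test of edgeR gave it an unadjusted p of 0.0588 and an adjusted p of 0.706. With the replicate number as a block, which did not pair these mice, it was 0.41 with an unadjusted p of 0.0188 and an adjusted p of 0.766. Without OGT-sufficient replicate 3, its lowest library, it was 0.235, and *Ero1l* was then higher at 0.248. Its partners *Spcs1* and *Spcs3* had 0.24 (standard error 0.21) and 0.058 (standard error 0.18). Further subunits of this enzyme outside the set, *Sec11a* and *Sec11c*, had 0.093 (standard error 0.13) and -0.38 (standard error 0.12). *Sec11c* had 53.5, 51.8 and 56.9 CPM in the OGT-sufficient and 42.6, 42.1 and 39.9 CPM in the OGT-deficient libraries, without overlap. Its unadjusted p was 0.0102 and its adjusted p 0.545 by edgeR's quasi-likelihood test.

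*Sec61a1*, the pore-forming subunit of the channel, had 114, 129 and 81.3 CPM in the OGT-sufficient and 113, 130.0 and 111 CPM in the OGT-deficient libraries. The spread was set by OGT-sufficient replicate 3, and the interval was 0.835 to 1.43-fold. *Sec61b*, a small tail-anchored subunit, had 18.1, 20.4 and 9.70 CPM and 15.2, 15.6 and 12.8 CPM, and 84.0% of its transcript has a nearly identical copy elsewhere, so its level is uncertain. *Sec61g* had 6, 3 and 3 counts in the OGT-sufficient and 5, 12 and 8 counts in the OGT-deficient libraries. With a floor of 3 counts, 2 of these libraries were at the limit, and a difference in *Sec61g* was not detectable at this depth. The translocon-associated subunits *Ssr1* to *Ssr4* had log2 fold changes of 0.073, -0.060, 0.051 and 0.22 (standard errors 0.14, 0.19, 0.12 and 0.18).

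The 8 genes with an ER stress response element in their window had a median log2 fold change of 0.0097, within -0.11 to 0.22. The 24 other tested genes with a window had a median of 0.055, within -0.33 to 0.40. Among these 24 are *Dnajb11* and *Herpud1*, which hold the shorter form of the element. The 8 genes with the longer element were also the more abundant, with a median of 86.7 CPM per kilobase of transcript against 22.3. These are descriptions of the 2 groups, and the difference between them was not tested.

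Single libraries differed more than the genotypes did. Each gene was set against its mean over the 6 libraries on the log2(CPM + 1) scale, and the median deviation of the 39 genes was 0.063, 0.0070 and -0.22 in the OGT-sufficient and -0.020, 0.15 and -0.021 in the OGT-deficient libraries. Over all genes tested these medians were between -0.013 and 0.013. OGT-sufficient replicate 3 was the lowest of the 6 libraries for 25 of the 39 genes (64.1%), beside 23.8% of all genes tested. OGT-deficient replicate 2 was the highest for 16 (41.0%), beside 14.1%. Between its highest and its lowest library a gene of the set differed by a median of 1.48-fold, beside 1.44-fold over 6840 genes in the same range of CPM. The summed level of the genes was 5899, 5410.3 and 4831 CPM in the OGT-sufficient and 5453, 6078 and 5199 CPM in the OGT-deficient libraries. Its mean was 5380 ± 534 CPM in OGT-sufficient and 5577 ± 452 CPM in OGT-deficient mice (SD, n = 3 each).

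**Figure D4:**
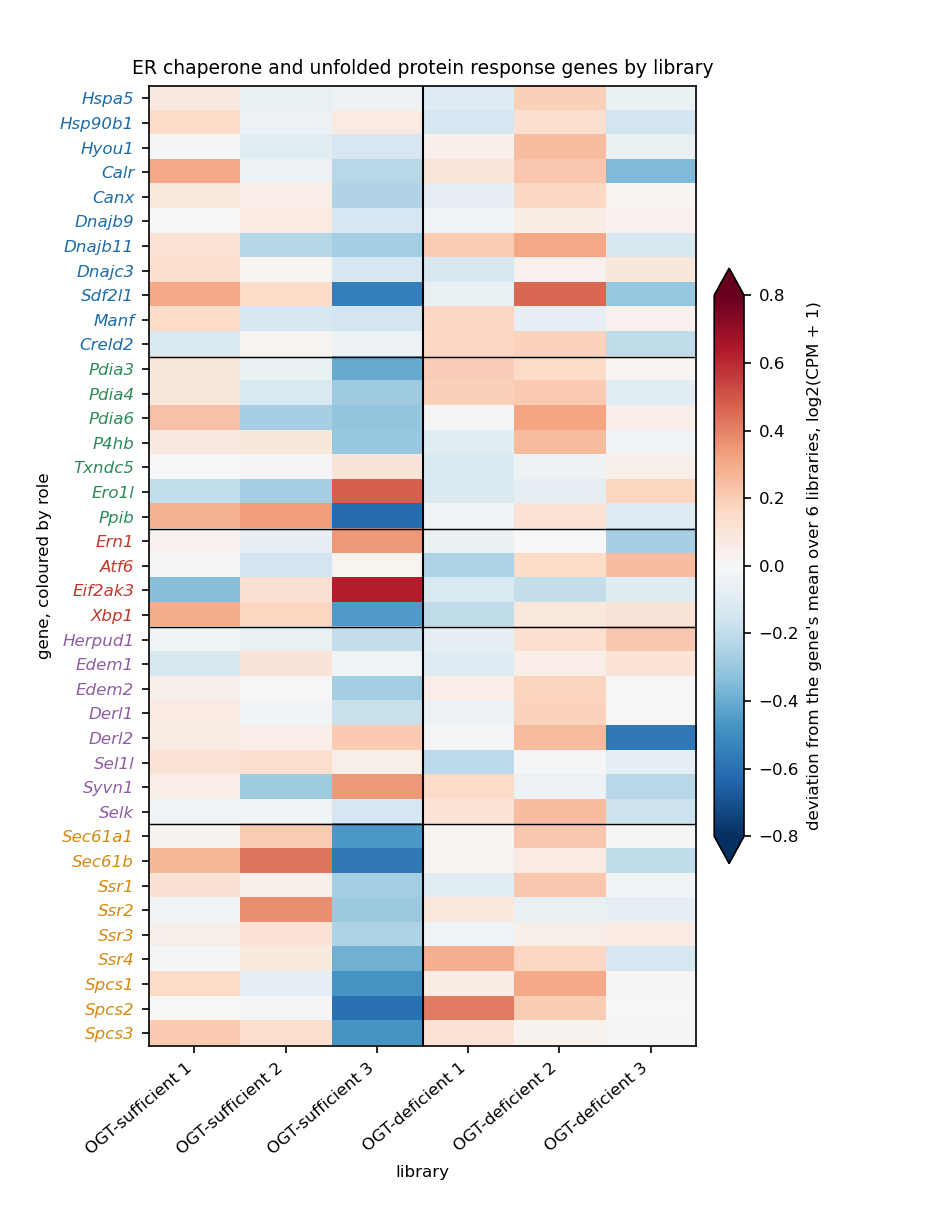
Deviation of each of the 39 genes from its own mean over the 6 libraries on the log2(CPM + 1) scale, red above and blue below, with rows ordered and coloured by role and the vertical line between the genotypes. The column of OGT-sufficient replicate 3 is blue for most chaperones and for all 9 translocon and signal peptidase subunits, and most strongly red for *Eif2ak3*, *Ero1l*, *Ern1* and *Syvn1*.

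The low values of OGT-sufficient replicate 3 were uneven across roles. All 9 tested subunits of the translocon, the translocon-associated complex and the signal peptidase were lowest there, with a median deviation of -0.46, and their sum was 498 CPM against 648 to 721 CPM in the other 5 libraries. Among the isomerases and their oxidase 5 of 7 were lowest there (median -0.30), and among the chaperones 7 of 11 (median -0.14). The degradation genes had 3 of 8 (median -0.080), though *Syvn1* was at 0.34 and *Derl2* at 0.21. The sensors and *Xbp1* had a positive median of 0.18, with *Eif2ak3* at 0.63 and *Ern1* at 0.35, whereas *Xbp1* was at -0.45.

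Transcript length moved with these deviations, in the set and in the table as a whole. In OGT-sufficient replicate 3 the 615 genes tested with a transcript of up to 1000 bases had a median deviation of -0.31, and the 3784 genes over 4000 bases had 0.090. The 3 ER genes of up to 1000 bases had -0.57 and the 10 over 4000 bases had -0.0039. In the class of 2000 to 4000 bases the 20 ER genes had a median of -0.26, while the 4437 genes of that class had 0.0026. Over the 39 genes, length and deviation had a Spearman rho of 0.564, given as a description because all points share 1 library. The part of transcript length in these low values was not tested.

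**Figure D5:**
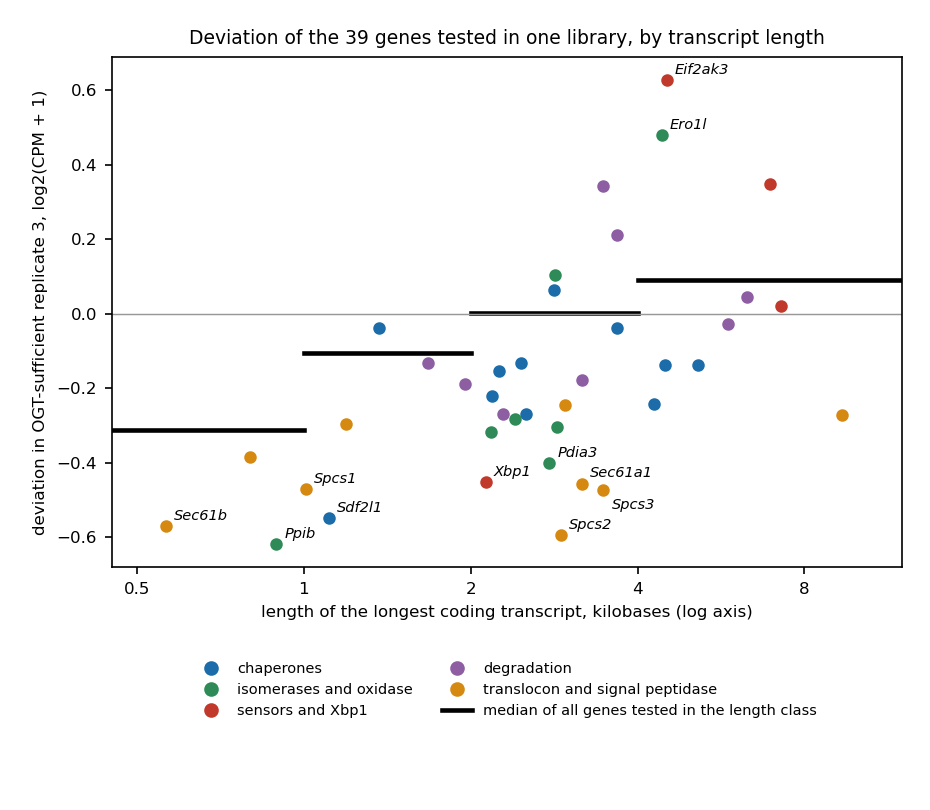
Deviation of each of the 39 genes in OGT-sufficient replicate 3, on the log2(CPM + 1) scale, against the length of the longest coding transcript on a log axis, coloured by role, with black bars at the median of all genes tested in each length class. Most ER genes of 2000 to 4000 bases lie below the bar of their class (median -0.26 against 0.0026), and *Ppib*, *Spcs2* and *Sec61b* are the lowest.

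Other cells and the purity of the sort were read from marker lists. The 6 Treg markers, *Foxp3* among them, summed to 2573, 2891 and 1958 CPM in the OGT-sufficient and 2848, 2620 and 2640 CPM in the OGT-deficient libraries, so they too were lowest in OGT-sufficient replicate 3. Red cell precursor markers (3 genes) were highest in that library, at 759 CPM against 194 to 434 elsewhere, and B-cell markers (5 genes) as well, at 540.1 CPM against 270 to 457. Their part in the low ER genes of that library was not tested. The 10 macrophage markers summed to 3899, 3547 and 1819 CPM in the OGT-sufficient and 1340, 4845 and 5592 CPM in the OGT-deficient libraries. In OGT-sufficient replicates 1 and 2 and OGT-deficient replicates 2 and 3 this was above the sum of the Treg markers. Sums of different genes do not give shares of cells, and the tissue of these cells was not tested. The levels and ratios of the ER genes are thus those of the sorted libraries and not of Treg cells alone. Ordered from the least to the most macrophage RNA, the libraries had ER gene median deviations of -0.020, -0.22, 0.0070, 0.063, 0.15 and -0.021. The medians of the 4 libraries in between thus rose with macrophage RNA, and those of OGT-deficient replicates 1 and 3 at the ends did not follow. The part of macrophage RNA in the ER gene values was not tested.

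Plasma cells are the immune cells with the most ER, and their markers were low. The 5 markers summed to 23.2, 16.1 and 38.0 CPM in the OGT-sufficient and 41.4, 21.4 and 18.5 CPM in the OGT-deficient libraries, and *Tnfrsf17* had at most 3 counts in every library. The libraries with the most, OGT-sufficient replicate 3 and OGT-deficient replicate 1, had ER gene medians of -0.22 and -0.020, and the other 4 libraries had -0.021 to 0.15. The part of plasma cell RNA in these values was not tested. The 4 markers of CD8 T and NK cells summed to between 12.5 and 28.3 CPM, and 1 of them, *Ncr1*, had at most 3 counts in every library. Of the markers tested, 1 of 5 B-cell genes and 0 of the other lists had an unadjusted p under 0.05 between genotypes.

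Beyond the 40 genes, 91 further genes of ER protein handling and related stress responses were read from 7 lists, and 83 of them were tested. None passed an FDR of 0.1. At an unadjusted p under 0.05, 3 were higher and 2 lower, beside 3.09% and 4.01% of all genes tested. Oligosaccharyltransferase, which attaches N-glycans, had 0 of 10 tested genes at that threshold and a median log2 fold change of 0.057. Targeting and translocation genes had 1 higher and 1 lower of 13 (median 0.051), further folding enzymes 1 higher of 17 (median -0.0069), further degradation genes 1 lower of 19 (median 0.031) and further transducers 0 of 6 (median 0.056).

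Of these 91 genes, 2 had an unadjusted p under 0.01. *Srp68*, a subunit of the signal recognition particle that brings ribosomes to the translocon, had 52.4, 55.5 and 49.6 CPM in the OGT-sufficient and 71.4, 69.3 and 67.6 CPM in the OGT-deficient libraries. Its groups did not overlap, and its log2 fold change was 0.40 with a standard error of 0.11. The unadjusted p was 0.00612 and the adjusted p 0.463 in edgeR. *Dnajb1*, a cytosolic HSP40 under heat shock control and not a gene of the ER, had 79.3, 79.9 and 76.6 CPM and 125, 118 and 97.1 CPM. It had a log2 fold change of 0.53 with a standard error of 0.13, an unadjusted p of 0.00239 and an adjusted p of 0.348, against 0.0787 with no low-count filter. In the list of cytosolic and mitochondrial chaperones it was the only 1 of 11 tested genes under 0.05, and the median there was -0.042.

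The integrated stress response, which PERK can start but which is not specific to it, gave 0 of 7 tested genes at an unadjusted p under 0.05. The median log2 fold change was -0.052. The transcription factor of this response, *Atf4*, had 85.7, 87.2 and 139.7 CPM in the OGT-sufficient and 103, 84.7 and 94.2 CPM in the OGT-deficient libraries. *Ddit3* (CHOP) had 10.9, 14.2 and 34.6 CPM and 18.2, 19.1 and 15.4 CPM, and *Ppp1r15a* (GADD34), which restores translation, 114, 112 and 243 CPM and 119.7, 128 and 132 CPM. For each of the 3 genes OGT-sufficient replicate 3 was the highest library, as it was for *Eif2ak3* and *Ppp1r15b*. *Ddit4* was lowest there, at 66.9 CPM against 124.5 to 192.3 CPM elsewhere. It had the list's largest log2 fold change, 0.52 (standard error 0.26). *Sesn2* was also lowest there, and *Atf3* was neither highest nor lowest. The log2 fold changes of *Atf4*, *Ddit3* and *Ppp1r15a* were -0.15, -0.18 and -0.30. Without OGT-sufficient replicate 3 they turned to 0.13, 0.495 and 0.17, with an unadjusted p of 0.0472 and an adjusted p of 0.719 in edgeR for *Ddit3*. The median of the 7 genes was likewise 0.13 without that library, 0.014 without OGT-deficient replicate 1 and -0.26 without OGT-sufficient replicate 2. *Trib3*, *Chac1* and *Nupr1* had too few counts to pass the low-count filter of this test.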

How the data were processed

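RNA of sorted Treg cells was sequenced as paired ends, with 3 mice of either genotype. The authors trimmed the reads (Trimmomatic v0.33), checked them (FastQC), mapped them (bowtie2 v2.2.4.0), quantified genes and tested them with EdgeR. The quantifier is Cuffquant in the paper and featureCounts in the submitters' processing notes, which give the build as mm10, and the annotation and strand setting are not given in the sources used here. The authors deposited a whole-number count per gene symbol and mouse, not normalized, beside group means, fold changes and p-values of their own test, which were not used.

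Counts were tested with edgeR 4.0.16 in R 4.3.3: TMM scaling, filterByExpr with min.count 10, the quasi-likelihood test of the genotypes on all 6 libraries, and Benjamini-Hochberg adjustment over all 10949 genes tested. Each standard error is the size of the log2 value divided by the root of its F statistic, and intervals follow from p. The script was tested on simulated data. Scaled library sizes were 3727491 to 3968979, so 3 counts are 0.756 to 0.805 CPM, and such floors cover counting error only. Replicates differed beyond counting error (chi-square per degree of freedom 3.46 to 24.2), so none looked like the same library sequenced again. Other kinds of repeat were not tested. With 3 mice a group the smallest two-sided p of an exact permutation test is 0.1, so none was run.

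The 40 genes, the gene lists and the markers were chosen with earlier results of these data known. All 40 genes are named, as are *Ogt*, *Rn45s*, and each gene of the other lists with an unadjusted p under 0.01. Named beside this rule, after their values were seen, are *Atf4*, *Ddit3*, *Ppp1r15a*, *Ppp1r15b*, *Ddit4*, *Sesn2*, *Atf3*, *Trib3*, *Chac1* and *Nupr1*, outputs of the integrated stress response. So are *Sec11a* and *Sec11c* of the signal peptidase, *Hspa13* of the further folding enzymes, and the markers *Foxp3*, *Ncr1* and *Tnfrsf17*. The shorter element, the length classes and the range between libraries were added after seeing the data. Lengths came from GENCODE M21 by symbol or RefSeq synonym (10893 of 10949 genes). Exons of 15 of the 40 genes share bases with another annotated gene, and 4 genes (*Sec61b*, *Selk*, *Sec61g* and *Ssr1*) hold stretches of at least 50 bases that are 98% identical to another gene, so their reads may be divided. Promoter windows came from RefSeq GRCm38.p6, and bases after the start lay in a transcript of the gene for 33 of 36 windows. Proteins were not analysed here. Alternatives were DESeq2 1.42.0, edgeR's exact test, other scalings and filters, a replicate block, and leaving out each mouse.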

Additional observations from a re-analysis of the deposited data

How the results depend on the processing

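No ER gene passed an FDR of 0.1 in any of 14 alternatives, where the lowest adjusted p was 0.473. The median log2 fold change of the set stayed between -0.0027 and 0.17. Over all genes the count at an FDR of 0.1 was 3 as reported, 38 by DESeq2, 80 by the exact test, 131 with no low-count filter, 0 with the replicate block and 0 to 9 with a replicate left out (0 without OGT-deficient replicate 2 or 3, 9 without OGT-sufficient replicate 3). At an unadjusted p under 0.05 it was 777, 452 with DESeq2, 1208 with no low-count filter, 679 with the block, and 462 to 889 with a replicate left out, lowest without OGT-deficient replicate 2. Same-numbered mice had correlations of deviations of -0.29, 0.0101 and -0.122, so the numbers do not pair them, and the block changed no other call of the set than that of *Spcs2*. ER genes at an unadjusted p under 0.05 were 1 higher with no low-count filter (beside 3.09% of all genes) and 1 with the block (2.9%), in each case *Spcs2*. With a replicate left out they were 0 to 5 higher (beside 2.3 to 4.17%) and 0 to 1 lower (1.83 to 4.64%). ER genes without overlap above were 1 with DESeq2's size factors (beside 6.29% of all genes), 1 with library size only (4.3%), 1 with no low-count filter (5.03%) and 0 to 10 with a replicate left out (10.4 to 14.0%). Those without overlap below were 0 with no low-count filter (beside 4.94%) and 1 to 4 with a replicate left out (9.18 to 13.5%).

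The sign changed in 39 of 546 combinations of gene and alternative, over 19 genes, none of which had a log2 fold change beyond 0.19 in either direction in the reported test. Among fits with all libraries, it changed with library size only for *Hspa5* (-0.020) and *Edem1* (-0.011), with no low-count filter for *Calr* (0.020), *Dnajc3* (0.041), *Ero1l* (0.0057) and *Xbp1* (0.0052), and for *Dnajc3* with DESeq2 (0.0068) and with its size factors (0.0068). With a replicate left out, log2 fold changes ranged from -0.039 to 0.105 for *Hspa5*, -0.13 to 0.18 for *Calr*, -0.021 to 0.16 for *Canx*, -0.0027 to 0.091 for *Dnajb9*, -0.065 to 0.098 for *Dnajc3*, -0.17 to 0.27 for *Sdf2l1* and -0.021 to 0.18 for *P4hb*. They ranged from -0.19 to 0.25 for *Ero1l*, -0.31 to 0.103 for *Ppib*, -0.23 to 0.15 for *Xbp1*, -0.36 to 0.054 for *Derl2*, -0.24 to 0.088 for *Syvn1*, -0.033 to 0.28 for *Sec61a1* and -0.395 to 0.067 for *Sec61b*. For *Ssr1* the range was -0.027 to 0.19, for *Ssr2* -0.1996 to 0.15, for *Ssr3* -0.041 to 0.13 and for *Spcs3* -0.12 to 0.22. With a replicate left out, *Atf4* ranged from -0.26 to 0.13, *Ddit3* from -0.43 to 0.495 and *Ppp1r15a* from -0.49 to 0.17, each positive without OGT-sufficient replicate 3 and negative without any other. The causes of these moves were not tested. With 3 mice a group, depth and spread between mice limit the set to the intervals given above, and the low-count filter left *Sec61g* out of the reported test.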
